A study of Mus musculus with 12 samples.

Results

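The 8 genes described here are grouped as Paneth granule and antimicrobial genes other than the defensins. They are Lyz1, Lyz2, Itln1, Mptx1, Mptx2, Ang4, Pla2g2a and Mmp7, taken by their mouse GENCODE symbols from a count table of 55414 genes. All 8 passed the filter on low counts and were tested together with the other genes, 13057 in all. Paneth cells sit at the base of small-intestinal crypts and release granules of antimicrobial proteins into the lumen. Lysozyme cleaves the peptidoglycan of bacterial walls, intelectin and the pentraxins bind microbial surfaces, Ang4 is a ribonuclease with antimicrobial activity, Pla2g2a is a phospholipase that attacks bacterial membranes, and the protease Mmp7 processes the precursors of the alpha-defensins.

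RNA-seq was performed on 12 libraries of untreated C57BL/6J mice, 3 in each of 4 groups. The groups were WT Paneth cells, GRKO Paneth cells, WT non-Paneth cells and GRKO non-Paneth cells. In GRKO mice the glucocorticoid receptor gene Nr3c1 is deleted in the epithelium through villin (GRvillinKO in the labels), so the deletion is not limited to Paneth cells. The genotype was read from the sample titles, because the genotype field of the labels follows the sort instead, and Nr3c1 follows the titles. The Paneth gate took CD24+ cKIT+ cells of medium to high side scatter that were negative for TER119, CD45 and CD31. How the non-Paneth crypt cells were gated is not stated in the labels or the methods. The labels do not give the age of the mice behind each library, and they do not say that replicates of a group are separate mice, so the p-values measure the spread between these libraries. In bulk RNA, fewer cells of a type and less RNA per cell cannot be told apart. A batch that followed the genotype could not be told apart from it either.

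The libraries held 11126297 to 15910292 counts. Nr3c1 lay at 4.73 to 12.1 CPM (counts scaled to 1000000 per library) in GRKO Paneth cells and at 33.0 to 41.1 CPM in WT Paneth cells, and at 19.6 to 36.2 CPM against 135 to 160 CPM in the non-Paneth cells. Its log2 fold change was −2.31 (standard error 0.319, adjusted p = 0.0331 by edgeR) in Paneth cells and −2.67 (standard error 0.298, adjusted p = 6.67e-05) in non-Paneth cells. In Paneth cells the Nr3c1 call held in 12 of 16 alternatives. It was lost without GRKO Paneth replicate 2 (adjusted p = 0.154), without WT Paneth replicate 1 (0.121), without WT replicate 2 in both sorts (0.0712) and with only the groups compared (0.0655), with log2 fold changes from −2.87 to −2.03 throughout. All 11 Paneth markers were found in the Paneth sort, and their summed level was 382000 to 468000 CPM there and 609 to 2400 CPM in the non-Paneth sort. These markers include Lyz1, Itln1, Mptx2, Ang4 and Mmp7, which are among the genes described here, and alpha-defensin genes. They also include Cd24a and Kit, for which the Paneth gate selects. Their sum is therefore not an independent check of the sort. Vil1 and the 6 other enterocyte markers summed to 474 to 1380 CPM in the Paneth sort. As sums, goblet and stem cell markers were not low there. The 7 goblet markers summed to 8640 to 12100 CPM in the Paneth sort and to 8660 to 18100 CPM in the non-Paneth sort. The 5 stem cell markers summed to 3160 to 6670 CPM and 4140 to 8550 CPM. The largest part of the goblet sum in WT Paneth cells was Spink4, with means of 6170 CPM there and 321 CPM in WT non-Paneth cells. Spink4 and Agr2 were called higher in WT Paneth cells by edgeR, and Muc2 and Tff3 were not called. Zg16, Clca1 and Fcgbp were called lower, with log2 fold changes of −4.54, −3.69 and −3.04. The part of goblet and stem cells in the results was not tested. WT non-Paneth replicate 2 stood apart from the other WT non-Paneth libraries in its Paneth transcripts, with alpha-defensin genes at 0.0996% of its counts and a lowest share of 0.0218% in the group. Both WT libraries of that number also carried the X-inactivation transcript Xist (127 and 257 CPM) and the others held at most 0.52 CPM, so the mice were not all of 1 sex.

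Both pairs of close relatives among the 8 genes raise the question of how well reads can be assigned to each member. Lyz1 (ENSMUSG00000069515) lies on chromosome 10 from 117123698 to 117128775 and Lyz2 (ENSMUSG00000069516) from 117111557 to 117118346, both on the minus strand of GRCm39 and separated by 5.35 kb. Their coding sequences of 444 bases are identical at 95% of positions and differ at 22. The second exon, all of it coding, is shown as an example of how few bases tell a lysozyme read apart, with 6 differing bases in 165. It lies at chr10:117126934-117127098 in Lyz1 and at chr10:117116546-117116710 in Lyz2, and capitals mark the differing bases.
Lyz1 exon 2: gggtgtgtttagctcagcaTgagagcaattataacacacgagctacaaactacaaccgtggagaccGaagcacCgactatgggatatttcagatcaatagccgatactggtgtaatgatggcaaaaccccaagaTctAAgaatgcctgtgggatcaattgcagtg
Lyz2 exon 2: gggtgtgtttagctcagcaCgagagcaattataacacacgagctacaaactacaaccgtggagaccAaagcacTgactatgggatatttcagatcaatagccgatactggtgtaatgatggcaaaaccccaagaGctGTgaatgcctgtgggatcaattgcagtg

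The study's qPCR primers for lysozyme are shown with their sites in both genes, because the forward primer falls within this exon. Both primers matched Lyz1 with 0 mismatches and Lyz2 with 2 each, and capitals mark the mismatched bases. The reverse primer is written as ordered, on the strand opposite to the transcript.
Forward primer and Lyz1 site: gagaccgaagcaccgactatg
Forward primer site in Lyz2: gagaccAaagcacTgactatg
Reverse primer and Lyz1 site: cggttttgacattgtgttcgc
Reverse primer site in Lyz2: cggttttgacaGtgtgCtcgc

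Mptx1 (ENSMUSG00000026531) lies on the plus strand of chromosome 1 from 174158084 to 174160439. Mptx2 (ENSMUSG00000079180) lies on the minus strand from 173101949 to 173105344, 1052739 bases away. Their coding sequences of 657 bases are 91.9% identical. The similarity runs on into the promoters: the 250 bases upstream of the start were 82.9% identical over 257 aligned columns with 14 gapped columns. For the lysozyme pair the value was 55.2% over 297 aligned columns, of which 164 were identical and 94 gapped. The forward primer site starts at base 229 of the Lyz1 transcript and at base 276 of the Lyz2 transcript. The annotated lysozyme starts may thus lie at different points of the shared sequence, so the 2 percentages cannot be compared directly. The upstream bases of Mptx1 and Mptx2 are shown because the levels of both genes differed widely in the same libraries. Mptx1 is read at chr1:174157834-174158083 on the plus strand and Mptx2 at chr1:173105345-173105594 on the minus strand of GRCm39, with capitals for bases that differ or have no partner in the alignment.
Mptx1 upstream: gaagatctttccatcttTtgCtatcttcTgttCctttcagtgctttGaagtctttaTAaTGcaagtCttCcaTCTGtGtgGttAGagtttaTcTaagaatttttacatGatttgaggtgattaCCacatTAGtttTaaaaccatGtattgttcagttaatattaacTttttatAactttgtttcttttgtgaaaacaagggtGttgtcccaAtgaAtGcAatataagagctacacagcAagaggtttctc
Mptx2 upstream: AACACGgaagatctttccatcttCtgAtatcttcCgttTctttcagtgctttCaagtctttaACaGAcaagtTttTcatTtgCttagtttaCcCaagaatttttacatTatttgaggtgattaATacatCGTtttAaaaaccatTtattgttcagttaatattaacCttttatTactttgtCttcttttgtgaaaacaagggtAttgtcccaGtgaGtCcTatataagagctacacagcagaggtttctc

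The other 4 genes lie apart from these. Itln1 (ENSMUSG00000038209) spans 171345690 to 171368943 on chromosome 1, Ang4 (ENSMUSG00000060615) 51990721 to 52011053 on chromosome 14, Pla2g2a (ENSMUSG00000058908) 138559171 to 138562497 on chromosome 4 and Mmp7 (ENSMUSG00000018623) 7692091 to 7699587 on chromosome 9. GENCODE types the main transcript of Pla2g2a as a loss-of-function form, and C57BL/6J is known to carry a disrupted copy, so its counts measure RNA and not the enzyme. Of windows of 100 bases within exons, 97.1% to 100% occurred once in the genome for all 8 genes. Of windows of 50 bases it was 84.0% for Lyz1, 89.7% for Lyz2, 81.7% for Mptx1 and 81.6% for Mptx2, and 95% to 100% for the other 4. Read length is not stated in the labels or the methods.

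In WT Paneth cells these genes took 20.7% ± 3.89 (SD, n = 3) of all counts, and in GRKO Paneth cells 21.0% ± 2.74 (SD, n = 3). In non-Paneth cells the share was 0.0434% ± 0.0274 (WT) and 0.0823% ± 0.0283 (GRKO) (SD, n = 3 each). Per length, in TPM (counts per length scaled to 1000000), the order in WT Paneth cells was Lyz1 with 109200 ± 17150, Itln1 with 31650 ± 7073, Mptx2 with 18050 ± 3711, Ang4 with 7415 ± 1714 and Mmp7 with 4511 ± 983 (SD, n = 3). Pla2g2a followed with 476 ± 22.2 TPM, Mptx1 with 25.2 ± 13.0 TPM and Lyz2 with 2.71 ± 0.724 TPM. Neighbours in this order did not overlap in their 3 libraries: Itln1 reached down to 23900 TPM and Mptx2 up to 22100 TPM, and Mptx2 down to 14810 TPM and Ang4 up to 9039 TPM. In GRKO Paneth cells Mptx2 (13550 to 21710 TPM) and Ang4 (8619 to 14080 TPM) overlapped, and the order of the TPM means was the same. The length used was that of all exons of a gene, 1766 bases for Ang4 and 794 for Mptx2. The main transcript of Ang4 has 715 bases and that of Mptx2 794. The places of Ang4 and Mptx2 relative to each other therefore depend on the length used. By mean CPM, Ang4 (20080) lay above Mptx2 (12700) in GRKO Paneth cells. Among all genes of WT Paneth cells, Lyz1 ranked second by mean CPM, Itln1 4, Mptx2 9, Ang4 10 and Mmp7 15, whereas Mptx1 ranked 5396 and Lyz2 8209.

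**Figure D1:**
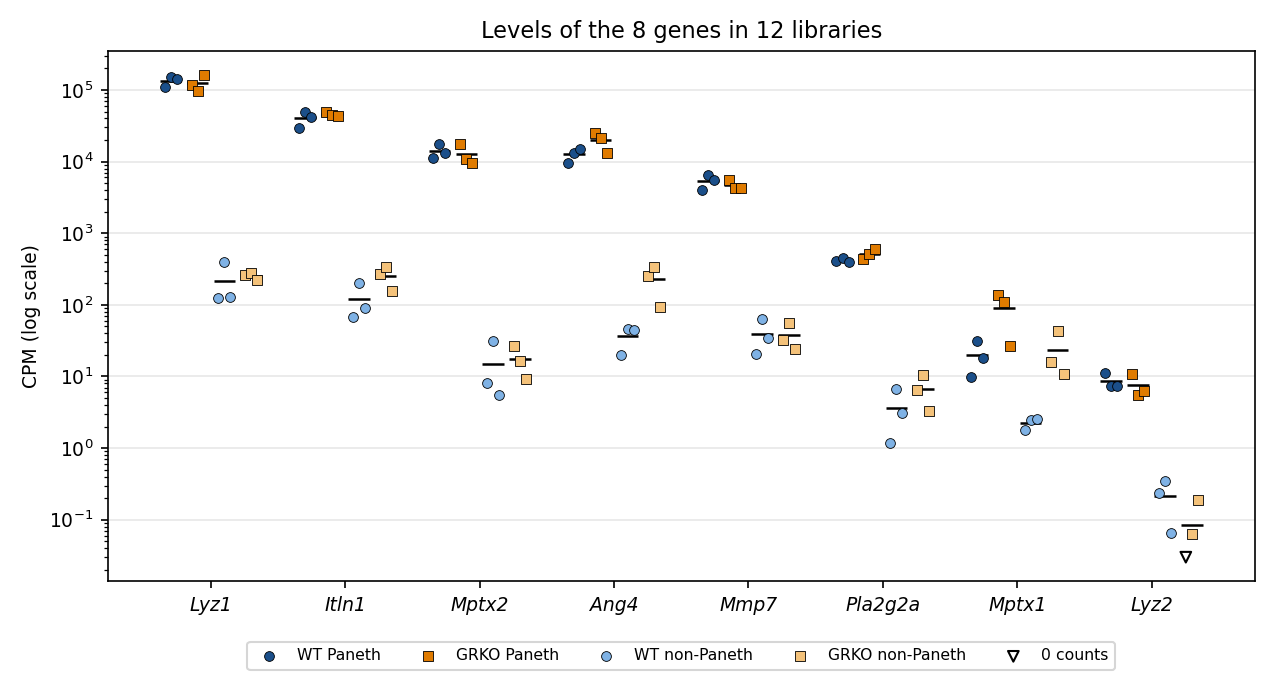
CPM (log axis) of the 8 genes in the 12 libraries, with 1 point for each library, a bar for the mean of the 3 libraries of a group, and a triangle for the library without Lyz2 counts, drawn at the bottom. For 7 genes every Paneth library lies above every non-Paneth library, and for Mptx1 this holds in WT cells, where the lowest Paneth library has 9.88 CPM and the highest non-Paneth library 2.54 CPM, but not in GRKO cells.

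The first comparison asked how far the granule genes are restricted to the Paneth sort. All 8 were higher in WT Paneth than in WT non-Paneth cells, where 24.0% of all genes tested were called higher, with a median log2 fold change of 8.46 for the 8 genes and 0.01 for all genes. In GRKO mice all 8 were again higher, where 18.0% of all genes were called higher, with medians of 7.71 and −0.08. Most of these genes are used as Paneth markers, and they were chosen with earlier results of these data known. Their higher level in the Paneth sort was therefore foreseeable and is not an independent check of the sort. The scaling mattered for the background: with library totals in place of TMM factors, which correct for composition, 1097 of 8989 called genes were higher in WT Paneth cells in place of 3133 of 6624. The all-gene median of the log2 fold change then moved to −0.68 in WT and −1.05 in GRKO mice.

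Lyz1, the main secreted lysozyme of Paneth cells, was found at 109200, 152800 and 143000 CPM in WT Paneth replicates 1, 2 and 3 and at 124, 398 and 130 CPM in the WT non-Paneth libraries. In GRKO mice it was found at 118800, 97540 and 162500 CPM in Paneth cells and at 259, 278 and 224 CPM in non-Paneth cells. The sorts did not come near each other in either genotype. Lyz1 was 1020-fold higher in the Paneth sort of WT mice (adjusted p = 7.08e-09 by edgeR, standard error 0.604 on the log2 scale) and 985-fold higher in that of GRKO mice (adjusted p = 1.35e-08, standard error 0.603).

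Lyz2, the lysozyme of macrophages and neutrophils, was rare in these epithelial cells. WT Paneth libraries held 11.3, 7.46 and 7.37 CPM and GRKO Paneth libraries 10.9, 5.51 and 6.32 CPM, which rest on 77 to 144 counts each. The WT non-Paneth libraries held 3, 5 and 1 counts and the GRKO non-Paneth libraries 0, 1 and 3 counts, so the fold changes between the sorts rest on very few reads. A count of 0 allows up to 3 counts, or 0.204 CPM, in GRKO non-Paneth replicate 1, for counting error only. The fitted log2 fold change was 5.99 in WT mice (standard error 0.513, adjusted p = 1.92e-07 by edgeR) and 7.28 in GRKO mice (standard error 0.569, adjusted p = 2e-07).

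The excess of Lyz1 counts over Lyz2 counts was 9670, 20500 and 19400 in WT Paneth cells and 10900, 17700 and 25700 in GRKO Paneth cells. The genotypes overlapped in this ratio (log2 difference 0.12, two-sided exact permutation p = 0.8, where the smallest p that 3 against 3 libraries allow is 0.1). How many Lyz2 counts come from Lyz1 reads was not tested, and the values of Lyz2 are therefore uncertain in cells where its relative is so abundant. Markers of macrophages did not follow Lyz2 across the sorts: 13 genes summed to 19.7 to 29.0 CPM in WT Paneth cells and to 28.9 to 38.3 CPM in WT non-Paneth cells, most of it Cd14. In Paneth cells of both genotypes Csf1r, Fcgr1, C1qb, C1qc, Cd163, Cx3cr1 and Tyrobp were at 0 counts. Cd14, Cd68, Itgam and Mrc1 had counts in every Paneth library, with WT means of 19.3, 1.39, 1.6 and 0.406 CPM. C1qa had counts in WT Paneth cells only, and Adgre1 in GRKO Paneth cells only. Which cells the Lyz2 counts come from was not tested.

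Itln1, a lectin that binds microbial sugars, was found at 29790, 48940 and 41290 CPM in WT Paneth cells and at 49000, 45310 and 43720 CPM in GRKO Paneth cells. In non-Paneth cells it was found at 67.9, 200 and 90.5 CPM (WT) and at 274, 337 and 157 CPM (GRKO). The gap between the sorts was a log2 fold change of 9.12 (standard error 0.559) in WT and 8.48 (standard error 0.545) in GRKO mice. Ang4 was found at 9525, 13350 and 15230 CPM in WT Paneth and at 19.9, 45.7 and 44.0 CPM in WT non-Paneth cells. That is a log2 fold change of 9.16 (adjusted p = 4.22e-07 by edgeR, standard error 0.672). In GRKO mice the fold change between the sorts was 7.47 (standard error 0.625, adjusted p = 2.93e-06).

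Mmp7 was found at 3996, 6481 and 5497 CPM in WT Paneth cells and at 5531, 4251 and 4218 CPM in GRKO Paneth cells. Its non-Paneth levels were 20.3, 63.6 and 34.6 CPM (WT) and 32.6, 56.3 and 24.1 CPM (GRKO), and the sorts differed by 7.80 (standard error 0.584) and 7.96 (standard error 0.588) on the log2 scale. Pla2g2a was the most even gene across the WT Paneth libraries, with 414, 456 and 398 CPM, a coefficient of variation of 7.08%. In GRKO Paneth cells it was found at 438, 518 and 604 CPM. Its non-Paneth levels were 1.16 to 6.68 CPM (WT) and 3.25 to 10.6 CPM (GRKO), from 15 to 169 counts a library.

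The 2 mucosal pentraxins differed in the gap between the sorts. Mptx2 was found at 11280, 17500 and 13070 CPM in WT Paneth cells and at 8.22, 31.1 and 5.47 CPM in WT non-Paneth cells, a log2 fold change of 10.59 (adjusted p = 9.26e-06 by edgeR, standard error 0.956), and in GRKO mice of 10.53. Mptx1 was found at 9.88, 30.9 and 18.3 CPM in WT Paneth cells and at 1.78, 2.50 and 2.54 CPM in WT non-Paneth cells, a log2 fold change of 3.86 (with a standard error of 0.949, adjusted p = 0.00868). In GRKO mice Mptx1 was found at 136, 110 and 26.6 CPM in Paneth cells and at 16.2, 43.4 and 10.9 CPM in non-Paneth cells. The GRKO sorts overlapped in CPM, and the log2 fold change was 2.98 (standard error 0.783, adjusted p = 0.0159). The Mptx1 call between the sorts was lost without both WT replicate 2 libraries in WT mice (adjusted p = 0.0693), and in GRKO mice without GRKO non-Paneth replicate 1 (0.0591), without GRKO non-Paneth replicate 3 (0.054) and in a fit on only the groups compared (0.0531).

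As a share of the level in Paneth cells, the non-Paneth level of Mptx1 was 11.5% in WT and 25.9% in GRKO mice. For the other 7 genes it was 0.107% (Mptx2, WT) to 2.47% (Lyz2, WT). To compare the proportions of the genes between the sorts, each gene was set against Lyz1 in the same library. Mptx1 stood at 0.140 ± 0.0569 counts per 1000 Lyz1 counts in WT Paneth cells and at 13.4 ± 6.66 in WT non-Paneth cells, and at 0.812 ± 0.561 and 89.1 ± 58.6 in the GRKO sorts (SD, n = 3 each). Ang4 stood at 93.7 ± 11.1 and 204 ± 118 in the WT sorts and at 172 ± 78.1 and 872 ± 417 in the GRKO sorts. For Mptx2 the same quantity was 103 ± 11.5 and 62.1 ± 18.4 in the WT sorts. The non-Paneth ratio divided by the Paneth ratio was 95.4 for Mptx1, 15.9 for Lyz2 (from 9 non-Paneth counts in all), 5.24 for Pla2g2a, 5.01 for Mmp7, 2.18 for Ang4, 1.98 for Itln1 and 0.602 for Mptx2 in WT mice. In GRKO mice these values were 110, 5.75 (from 4 non-Paneth counts in all), 6.09, 3.76, 5.06, 2.59 and 0.633. Set against all alpha-defensin counts in place of Lyz1, Mptx1 gave 103 and 102. These ratios are descriptions without a test.

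**Figure D2:**
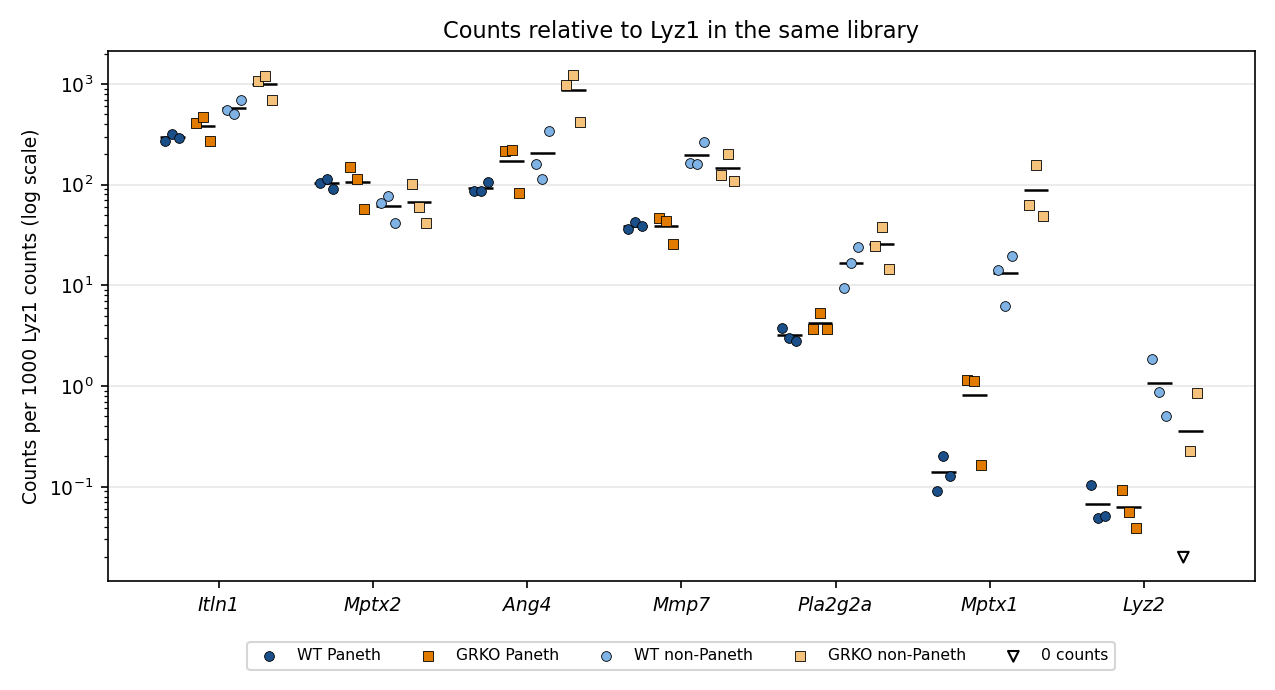
Counts of 7 genes per 1000 Lyz1 counts of the same library (log axis), with 1 point for each library and a bar for the mean of 3. The non-Paneth points of Mptx1 lie far above its Paneth points in both genotypes (means of 13.4 against 0.140 in WT), and those of Mptx2 lie near its Paneth points.

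Within each library the counts of Mptx2 were divided by those of Mptx1. The ratio was 1140, 566 and 713 in WT Paneth cells and 130, 100 and 354 in GRKO Paneth cells. It was 4.61, 12.4 and 2.15 in WT non-Paneth cells and 1.62, 0.38 and 0.854 in GRKO non-Paneth cells. In each sort all GRKO libraries lay below all WT libraries, and Mptx1 counts exceeded Mptx2 counts in GRKO non-Paneth replicates 2 and 3. The log2 difference between genotypes was −2.21 in Paneth cells and −2.61 in non-Paneth cells, each with a two-sided exact permutation p = 0.1, the smallest that 3 against 3 libraries allow, and 0.133 after adjustment over 8 tests of ratios. When single libraries were left out, the differences lay between −2.76 and −1.85 in Paneth cells and between −3.21 and −1.95 in non-Paneth cells. This ratio does not depend on how the libraries are scaled.

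**Figure D3:**
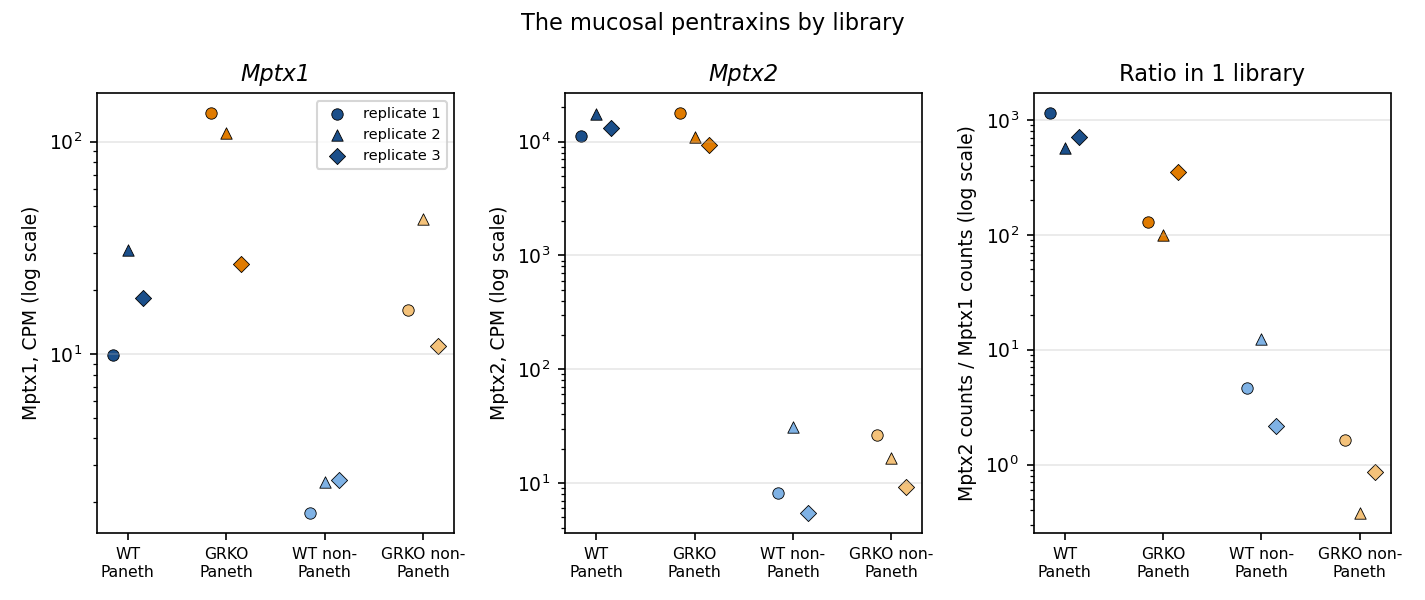
CPM of Mptx1 (left) and of Mptx2 (middle) and the ratio of their counts (right), all on log axes, with 1 point for each library and the replicate shown by the marker. The GRKO ratios lie below the WT ratios in both sorts, with 100 to 354 against 566 to 1140 in Paneth cells, while Mptx2 overlaps between the genotypes.

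The second comparison addressed the effect of the GR deletion in Paneth cells. By edgeR 0 of the 8 genes differed between GRKO and WT Paneth cells, where 3.22% of all genes were called in either direction. Of the 8, Mptx1 alone had an unadjusted p under 0.05 in edgeR, and of all 13057 genes tested 3491 had one. DESeq2 called 1 (Mptx1, adjusted p = 0.0373), and edgeR without a filter on low counts called 2 (Ang4 and Mptx1). Among all genes these settings called 1421 of 13057 and 1780 of 24077. The median log2 fold change was 0.02 for the 8 genes and 0.03 for all genes. Mptx1 had a log2 fold change of 2.18 (with a standard error of 0.773, unadjusted p = 0.0213, adjusted p = 0.123 by edgeR), with 2 of the 3 GRKO libraries above all WT libraries and replicate 3 (26.6 CPM) within their range. Without GRKO replicate 3 in both sorts it was 2.60 (adjusted p = 0.0908).

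The other genes gave intervals around no change. For Lyz1 the log2 fold change was −0.13 (95% interval −0.93 to 0.68), for Lyz2 −0.16 (−0.83 to 0.51), for Itln1 0.17 (−0.60 to 0.94) and for Mptx2 −0.14 (−1.38 to 1.10). For Pla2g2a it was 0.26 (−0.62 to 1.14) and for Mmp7 −0.21 (−1.06 to 0.64). Ang4 had 0.66 (−0.27 to 1.58, adjusted p = 0.393), with GRKO Paneth levels of 25480, 21450 and 13320 CPM. Replicates 1 and 2 lay above every WT library and replicate 3 did not. The intervals are wide, and smaller changes were not detectable with 3 libraries a group.

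In non-Paneth cells 2 of the 8 genes, Ang4 and Mptx1, were called higher in GRKO mice, where 17.5% of all genes were called higher and 19.8% lower. Ang4 was found at 250, 342 and 93.0 CPM in GRKO and at 19.9, 45.7 and 44.0 CPM in WT non-Paneth cells, without overlap. Its log2 fold change was 2.35 (standard error 0.499, adjusted p = 0.00355 by edgeR), 5.10-fold. It was called in all 16 alternatives, with a log2 fold change from 1.89 to 2.68. With the replicate number as a block its adjusted p was 0.0345.

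Mptx1 was found at 16.2, 43.4 and 10.9 CPM in GRKO and at 1.78, 2.50 and 2.54 CPM in WT non-Paneth cells, also without overlap. Its log2 fold change was 3.06 (standard error 0.933, adjusted p = 0.0318 by edgeR), 8.33-fold. The call was less firm: it held in 9 of 16 alternatives, in 1 of the 6 fits that leave out 1 library (adjusted p = 0.0336 to 0.111) and not with the replicate block (adjusted p = 0.0871). The direction was the same in all of them, with log2 fold changes from 2.22 to 3.36.

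Of the remaining genes, Itln1 had 0.80 (95% interval 0.02 to 1.58, adjusted p = 0.128), Pla2g2a 0.58 (−0.49 to 1.65) and Lyz2 −1.46 (−3.31 to 0.40, from 9 against 4 counts). Lyz1 had −0.08 (−0.88 to 0.73), Mptx2 −0.08 (−1.38 to 1.22) and Mmp7 −0.37 (−1.23 to 0.50). WT non-Paneth replicate 2 was the highest WT non-Paneth library for all genes but Mptx1. Without it, Itln1 was called (log2 fold change 1.37, adjusted p = 0.012), and Lyz1 (0.67), Mptx2 (1.02) and Mmp7 (0.13) changed sign without being called. With library totals only, which moved the median of all genes from 0.02 to 0.31 in this comparison, Itln1 was called as well (1.10, adjusted p = 0.0221).

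**Figure D4:**
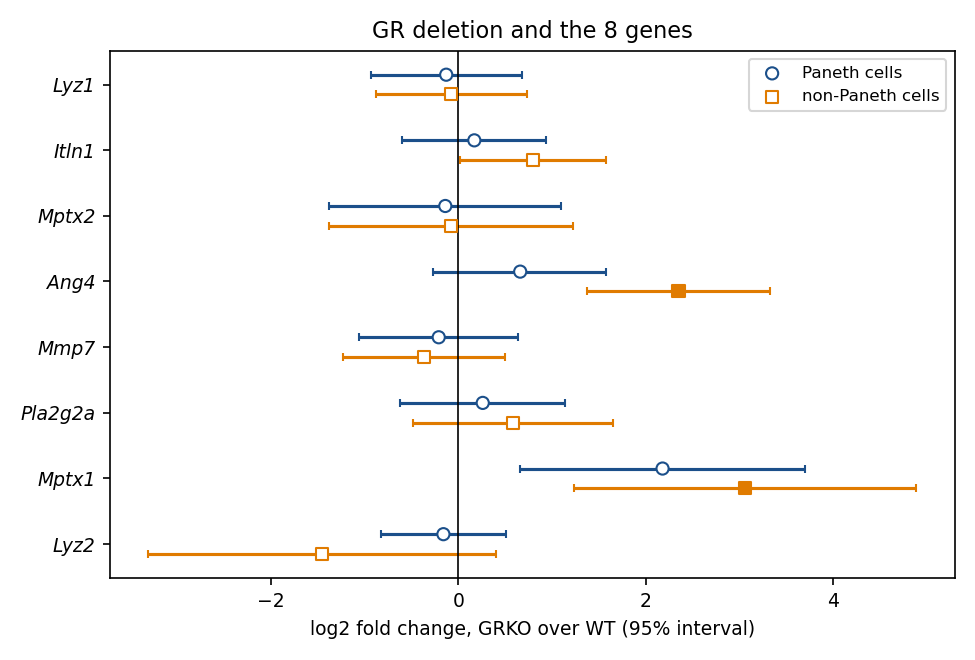
Log2 fold change of GRKO over WT with its 95% interval for the 8 genes, in Paneth cells (circles) and in non-Paneth cells (squares), filled where the adjusted p was under 0.05. Ang4 (2.35) and Mptx1 (3.06) in non-Paneth cells are the 2 filled points.

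Marker sums of some other cell types differed between the genotypes in the same non-Paneth libraries. The 4 tuft cell markers Dclk1, Trpm5, Pou2f3 and Avil, all above 0 in every group, summed to 3.80, 10.5 and 7.48 CPM in WT and to 256, 369 and 92.8 CPM in GRKO non-Paneth replicates 1, 2 and 3. In Paneth cells the same list summed to 131, 206 and 331 CPM in WT and to 539, 873 and 318 CPM in GRKO libraries. The 7 enterocyte markers summed to 26700 to 30100 CPM in WT and 6740 to 8260 CPM in GRKO non-Paneth cells. The 5 stem cell markers summed to 4140 to 5710 and 6520 to 8550 CPM, and 4 proliferation markers to 797 to 929 and 1680 to 1780 CPM. By edgeR Fabp1, Fabp2 and Vil1 were called lower in GRKO non-Paneth cells, and the other enterocyte markers were not called. Most of the stem cell sum was Olfm4 (means of 4410 and 6920 CPM), which was not called (log2 fold change 0.36, adjusted p = 0.149). Axin2 was not called either, and Lgr5, Ascl2 and Smoc2 were called higher. The 7 goblet cell markers, of interest because goblet cells can also make Ang4, overlapped as a sum with 8660 to 18100 and 8880 to 12800 CPM. Of these, Muc2 (log2 fold change −1.24, adjusted p = 0.00992 by edgeR) and Tff3 (−1.03, adjusted p = 0.0264) were called lower in GRKO non-Paneth cells. The other goblet markers were not called. The 5 enteroendocrine markers overlapped as a sum with 200 to 628 and 511 to 757 CPM. Among them Gip alone was called, and it was higher in GRKO cells (log2 fold change 2.52, adjusted p = 0.0255 by edgeR). The part of these cells in the changes of Ang4 and Mptx1 was not tested.

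Whether the deletion acted differently in the sorts was tested as an interaction, in which 0 of the 8 genes were called by edgeR and 18.7% of all genes were. Ang4 was the only one of the 8 at an unadjusted p under 0.05 in edgeR, where 4345 of 13057 genes were. DESeq2 called 0 of the 8 and 3028 of 13057 genes. Ang4 had an interaction of −1.69 on the log2 scale (standard error 0.674, unadjusted p = 0.0281, adjusted p = 0.103). It was called with the replicate number as a block (adjusted p = 0.00219), without GRKO non-Paneth replicate 3 (0.0225), without GRKO replicate 3 in both sorts (0.04) and without a filter on low counts (8.83e-06). The block pairs the sorts by number in GRKO mice too, where the numbers were not taken to pair libraries. Mptx1 had −0.88 (standard error 1.2, adjusted p = 0.662), so a difference between the sorts in its response was not detectable with these libraries.

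The genes were then described by the company they keep across the 12 libraries. Of the 9645 tested genes with at least 10 CPM in a group, those most like Lyz1 by Pearson's r of log2 CPM were Defa39, Defa34 and Defa38, and those most like Mptx2 were Defa30, Defa38 and Defa22 (r 0.998 to 0.999). Lyz2 was closest to Defa5, Defa41 and Defa34 (0.990 to 0.992) and Mmp7 to Defa22, Defa21 and Defa41 (0.996). Itln1 and Pla2g2a shared their nearest genes, Habp2, Nucb2 and Defa24 (0.993 to 0.998). Ang4 was closest to the amino acid transporter gene Slc43a1, the sialic acid transporter gene Slc35a1 and Hpd, of tyrosine breakdown (0.993 to 0.995). Mptx1 alone had no gene above 0.972, and its nearest were Myadm, Vav1, which encodes a guanine nucleotide exchange factor, and Tmem176a (0.969 to 0.972). Mptx1 correlated with the other 7 genes at 0.686 to 0.861, and all pairs among those 7 lay at 0.936 to 0.997. These values mostly follow the contrast between the sorts, which all 12 libraries share.

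Related genes gave a background for each member. Of 17 alpha-defensin genes on the list of other granule genes, all 17 were higher in Paneth cells in both genotypes (median log2 fold change 9.99 in WT), and in GRKO Paneth cells 1 was called, Defa35, which was lower (−0.88, adjusted p = 0.0381 by edgeR) and was named after its values were seen. That call held in 10 of 16 alternatives and was lost among others without GRKO Paneth replicate 2, WT Paneth replicate 1 or WT Paneth replicate 2 (adjusted p up to 0.217). Of 17 other antimicrobial genes tested, 4 were higher and 8 lower in WT Paneth cells, where 24.0% of all genes were called higher and 26.7% lower. With library totals only, 4 were higher and 11 lower. Among them were the lectin gene Reg4 (5.80), higher, and the lectin gene Reg3a (−4.77), lower. In GRKO against WT non-Paneth cells Dmbt1, a mucosal scavenger receptor gene, rose (0.88, adjusted p = 0.0119), and Reg3a (−2.04, adjusted p = 0.0207) and the nitric oxide synthase gene Nos2 (−1.47, adjusted p = 0.00668) fell. In GRKO against WT Paneth cells edgeR called 0 of the 17, DESeq2 called 2, and 3 had an unadjusted p under 0.05 in edgeR. Of all 13057 genes, DESeq2 called 1421 there, and 3491 had an unadjusted p under 0.05 in edgeR.

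The families of the enzymes did not move as one. Of 6 secreted phospholipase A2 genes tested besides Pla2g2a, 3 were higher and 1 lower in WT Paneth cells (2 and 2 with library totals only), with Pla2g2f the highest in fold (6.22, adjusted p = 5.38e-06 by edgeR) and Pla2g12b lower (−2.98, adjusted p = 9.19e-09). In GRKO non-Paneth cells 3 rose. They were Pla2g12a (0.63, adjusted p = 0.000862, called in all 16 alternatives), Pla2g5 (0.88, adjusted p = 0.0299, called in 11) and Pla2g2f (1.38, adjusted p = 0.0498, called in 7). Pla2g12b fell there (−1.63, adjusted p = 1.04e-05, called in all 16). Of 4 genes of ribonucleases and their inhibitor besides Ang4, Rnase1 (4.77), Rnase4 (3.08) and Ang (2.58) were higher in WT Paneth cells. In GRKO Paneth cells Rnase1 was called higher (1.13, adjusted p = 0.0381), a call that held in 9 of 16 alternatives and was lost among others with only the groups compared and without GRKO Paneth replicate 2, GRKO Paneth replicate 3 or WT Paneth replicate 1 (adjusted p up to 0.154). In GRKO non-Paneth cells the inhibitor gene Rnh1 was called lower (−0.41, adjusted p = 0.047), in 6 of 16 alternatives and not with library totals only (−0.12, adjusted p = 0.472) or without GRKO non-Paneth replicate 1, 2 or 3 or WT non-Paneth replicate 1 or 3. Of 7 metalloproteinase and inhibitor genes besides Mmp7, 2 were higher and 2 lower in WT Paneth cells, and with library totals only 0 were higher and 2 lower. Mmp28 was lower under both scalings (−1.56 and −2.28), whereas Mmp14 turned from 0.58 (adjusted p = 0.00263) to −0.11 (adjusted p = 0.564). In GRKO non-Paneth cells Mmp14 alone was called (0.63, adjusted p = 0.00249). None of the 8 further lysozyme family genes had enough counts for a test. Of 2 other pentraxin family genes tested, edgeR and DESeq2 called 0 between the genotypes in either sort. In Paneth cells 1 of them had an unadjusted p under 0.05 in edgeR, as had 3491 of 13057 genes.

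Genes of Paneth cell secretion and its control were read beside them. Of 14 tested, 10 were higher and 1 lower in WT Paneth cells (8 and 4 with library totals only), led by the coatomer gene Copz2 (6.70) and Bhlha15 (6.29), which encodes the secretory transcription factor MIST1. In GRKO Paneth cells edgeR called 1 of the 14, Bhlha15 (0.80, adjusted p = 0.0448), and DESeq2 called 4. In edgeR 6 had an unadjusted p under 0.05, all of them higher, where 3491 of 13057 genes had one in either direction. The Bhlha15 call held in 8 of 16 alternatives, with adjusted p up to 0.224, and was lost among others with only the groups compared and without GRKO Paneth replicate 2, GRKO Paneth replicate 3, WT Paneth replicate 1 or WT Paneth replicate 2. In GRKO non-Paneth cells Bhlha15 rose as well (1.14, adjusted p = 0.00179, called in all 16 alternatives), from a mean of 2.47 CPM in WT to 6.71 CPM. Sox9 (0.75, adjusted p = 0.000856), needed for Paneth cell formation, and Creb3l1 (0.66, adjusted p = 0.0154, called in 11 of 16 alternatives) also rose there. Rab8a, of vesicle transport, fell (−0.55, adjusted p = 0.00191, but −0.27 and 0.0805 with library totals only). Among the related genes called between the non-Paneth groups, Dmbt1, Reg3a, Pla2g5, Pla2g2f and Creb3l1 were no longer called without GRKO replicate 1 or without WT replicate 1. All of these but Dmbt1 also lost the call without GRKO replicate 2, Pla2g5, Pla2g2f and Creb3l1 without WT replicate 3, and Pla2g2f without GRKO replicate 3.

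As the deleted receptor is a transcription factor, RefSeq promoters (GRCm38.p6, 250 bases before to 50 after the start) were searched for its half-site AGAACA on both strands. Of the 8 genes 7 had a promoter in this set, and Pla2g2a did not. The half-site was found in those of Lyz1 and Mmp7, and in 19.0% of all 32851 promoters. The full site, AGAACA followed after 3 bases by TGTTCT, was in 0.00913% of all promoters and in none of the 7. Other motifs were searched on both strands too. The TCF motif CTTTGAT was found in the promoter of Mmp7 and in 3.73% of all promoters. TATAAA was found in those of Mmp7 and Mptx1 and in 13.6%, and the E-box CAGCTG in those of Lyz1 and Lyz2 and in 16.3%. The TATAAA matches of Mptx1 lay on the strand opposite to the gene, at −82 and −198 from the start, and those of Mmp7 on its own strand. Neither Ang4 nor Mptx1 carried the GR half-site in this window. These matches describe the letters only.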

How the data were processed

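RNA was sequenced from 12 libraries in 4 groups of 3. The authors deposited raw read counts per gene, made with Trimmomatic 0.39 and STAR 2.7.10a (GeneCounts) on mm39 from single-end stranded TruSeq libraries. Only reads that map once and overlap 1 gene enter such counts. The methods name gencode v28, and genes were named here through GENCODE vM39 on GRCm39 (54749 of 55414, 98.8%). The strand counted is not stated in the labels or the methods, and the labels and the methods name different RNA kits. All columns were used.

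CPM used the total of all gene counts, and TPM divided counts by the exonic length. Groups were compared with edgeR 4.0.16 in R 4.3.3 (filterByExpr, TMM, glmQLFit with robust estimation, glmQLFTest) in 1 fit over 12 libraries, with Benjamini-Hochberg adjustment over 13057 genes at 0.05. Standard errors are the fold change divided by the root of F, which is approximate, and 95% intervals rest on them. The procedure was also run on simulated counts, in which the groups shared a common mean apart from a small set of changed genes. Such counts lack the large difference in composition between the sorts, so they do not test the scaling between them. Ratios of counts were compared with exact permutation tests. Alternatives were DESeq2 1.42.0, RLE factors, library totals only, scaling without the 8 genes and the alpha-defensin genes, other filters, only the groups compared, a replicate block, and libraries left out. Leaving out GRKO replicate 3 in both sorts, and the ratios to Lyz1 and alpha-defensin counts, were chosen after the data had been seen.

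Between the sorts the numbers were taken to pair libraries in WT mice, where the correlations of deviations from the group means were 0.349, 0.229 and 0.238, over the limit of 0.1, and not in GRKO mice (0.0129, 0.262 and 0.465). The main fit held no term for this pairing in either genotype. The replicate block between the sorts and for the interaction held it in both genotypes. The named genes are the 8 genes, Nr3c1, for each related list up to 3 called genes with the largest fold change and at least 10 CPM in a group, and the 3 genes most like each of the 8. Cell type markers, and Bhlha15 and Pla2g12a in GRKO non-Paneth cells, were named besides these. The genes and lists were chosen with earlier results of these data known. The total count of 11126297 or more per library leaves genes of under about 10 counts, such as Lyz2 in non-Paneth cells, imprecise.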

Additional observations from a re-analysis of the deposited data

How the results depend on the processing

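The 8 genes kept their higher level in Paneth cells under every alternative run, and all but Mptx1 kept the call in each. The number of genes called between GRKO and WT Paneth cells, 420, was the least stable. It was 1421 by DESeq2, 2 with library totals only, 1780 without a filter on low counts, 0 by edgeR with only the groups compared (2341 at an unadjusted p under 0.05), 902 with the replicate block, 112 without GRKO replicate 3 in both sorts, 1 without WT replicate 2 in both sorts, and 0 to 1618 over the fits that leave out 1 library. The lowest values were those without GRKO Paneth replicate 2 (0, with 2062 at an unadjusted p under 0.05) and without WT Paneth replicate 1 (1). Library totals only gave 10784 genes between the GRKO sorts, 816 of them higher in Paneth cells, in place of 5117, 2344 of them higher. The interaction gave 2446 genes, 1432 without GRKO replicate 3 in both sorts and 1563 to 2607 with each library left out. The cause of these shifts was not tested.

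Of the 8 genes, the number called between GRKO and WT Paneth cells was 0, 1 by DESeq2 and 2 without a filter. Among all genes it was 420 of 13057, 1421 of 13057 by DESeq2 and 1780 of 24077 without a filter. Between the non-Paneth groups the number of the 8 called was 2, 4 without a filter (with Itln1 and Pla2g2a), 1 with the replicate block and 1 to 2 with each library left out. Among all genes it was 4869 of 13057, 5012 of 24077 without a filter, 4661 of 13057 with the replicate block and 3636 to 4264 with each library left out. For the interaction the number of the 8 called was 0, 2 without a filter, 1 with the replicate block, 1 without GRKO replicate 3 in both sorts and 0 to 1 with each library left out. Among all genes it was 2446 of 13057, 2671 of 24077 without a filter, 2977 of 13057 with the replicate block and 1432 of 13255 without GRKO replicate 3. Between genotypes the replicate numbers are only shared, with correlations of −0.098 to 0.166, and the replicate block changed no other call of the 8 genes.

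Directions changed only for genes that were not called, all in comparisons of the genotypes or in the interaction. In Paneth cells the log2 fold change of Mptx2 became 0.04 without GRKO replicate 3 in both sorts and, without WT replicate 2 in both sorts, 0.18, with 0.07 for Mmp7 and 0.08 for Lyz1. In non-Paneth cells library totals gave 0.21 for Mptx2 and 0.22 for Lyz1, the replicate block 0.19 and 0.16, leaving out GRKO replicate 3 gave 0.16 for Mptx2, and leaving out WT replicate 2 gave 1.07 for Mptx2, 0.17 for Mmp7 and 0.71 for Lyz1. The interaction of Lyz1 was 0 with DESeq2 and RLE factors, and that of Mmp7 −0.12 with library totals and −0.10 without WT replicate 2. When single libraries were left out, the values in Paneth cells ran from −0.06 to 0.45 for Itln1, −0.32 to 0.08 for Lyz1, −0.64 to 0.08 for Lyz2, −0.46 to 0.07 for Mmp7 and −0.58 to 0.18 for Mptx2. In non-Paneth cells they ran from −0.42 to 0.67 for Lyz1, −0.83 to 0.13 for Mmp7 and −0.57 to 1.02 for Mptx2, and in the interaction from −0.83 to 0.26 for Lyz1, −0.37 to 0.58 for Mmp7, −1.19 to 0.41 for Mptx2 and −1.08 to 0.19 for Pla2g2a. With 3 libraries a group, and 4 to 9 Lyz2 counts in the non-Paneth groups, smaller changes were not detectable.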
